A study of Rattus norvegicus with 54 samples.

Results

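The comparison set cultures treated with AAV-SYN-GFP, an adeno-associated virus in which the SYN promoter drives GFP, against cultures that received no virus, both sampled at 2 h. It took 12 of the 54 RNA sequencing libraries of the series: 6 from cultures with the GFP virus and 6 from untransfected cultures, chosen by their titles. Each side held 3 libraries from medium with magnesium, which the labels call standard, and 3 from medium without magnesium, which they call epileptic. All were cultures of cortical neurons, as labelled, prepared from rats at embryonic day 18 (E18), and the 3 cultures, numbered 1 to 3, were shared by every group. No genotype, strain or sex is labelled, and no agent other than the virus and the medium. The labels do not say from which event the 2 h were counted, or how long the virus had been present.

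Adeno-associated viruses are small DNA viruses, stripped of their own genes when used as vectors, that enter a cell through surface receptors and deliver their genome to the nucleus. The synapsin promoter restricts expression largely to neurons, and GFP, a fluorescent protein, serves as cargo for a control virus, so that the change brought by the vector itself can be set apart from that of a gene of interest. Magnesium ions block the NMDA type of glutamate receptor at rest, and their removal makes cultured neurons fire in synchronous bursts, a common model of epileptiform activity. The series as a whole asked about Mbd3, a protein of a chromatin repressor complex, in epileptogenesis, and used a second virus, which carries rMBD3, for that purpose. Its libraries are titled AAV_SYN_rMBD3_GFP, so that the title names GFP as well as rMBD3.

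The deposited table names genes by Ensembl identifier only, so that genes are described here by locus on the mRatBN7.2 assembly, where an exon block is a stretch made by merging the gene's overlapping listed exons. Marker genes of neurons and glia, interferon genes and other lists that need gene symbols were not analysed here, and the labelled cell type was therefore not checked against its markers. Total counts of the 12 libraries ran from 14448927 to 39691105, and the 2 shallowest were the GFP libraries of cultures 1 and 2 in magnesium-free medium. At 3 counts the smallest detectable level was 0.0756 to 0.208 CPM (counts scaled to library size), and this limit covers counting error only. The RNA is bulk RNA, in which fewer cells of a type and less RNA per cell cannot be told apart.

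One library stood apart from the others of its group. In the untransfected library of culture 1 in magnesium medium, genes of the mitochondrial chromosome took 3.42% of counts, while the other 5 untransfected libraries had 1.38% to 1.95% and the 6 GFP libraries 1.62% to 2.04%. Its median distance per gene from the other 2 libraries of its group was 0.24 on the log2 scale, against 0.081 to 0.21 for the other 11 libraries. The 0.21 was that of the GFP library of culture 1 in magnesium medium, which therefore also lay far from its group. The number of genes called, the gene lists and the named genes for which the untransfected library lay far from its group are given below with and without it. The fits without the untransfected library keep that GFP library, which then has no control of its own culture and medium. The first principal component held 40% of the variance, and culture number accounted for 79.2% of it. On it the library that stood apart scored 85.2 and the GFP library of its culture and medium 45.3. The magnesium-free libraries of culture 1 scored 19.6 and 21.9, and all libraries of cultures 2 and 3 scored -32.3 to -8.29. The share of culture number therefore rests in part on the library that stood apart, and it was not computed without that library. Of the first 3 components, the construct had its largest share, 46.7%, on the third, which held 10.4% of the variance.

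In cultures with the GFP virus at 2 h, 5 genes were lower than in untransfected cultures and none was higher at an adjusted p under 0.05. The 5 genes are 0.0327% of the 15299 tested, in an edgeR quasi-likelihood model with medium and culture as blocks. They had fallen to between 14.9% and 65.1% of the untransfected level, and each was lower in 6 of 6 pairs of same-culture, same-medium libraries, as were 5.36% of all genes tested; the same sign in every pair was part of the rule for naming a gene, so nothing is read from that share. At an unadjusted p under 0.05 there were 1037 lower genes (6.78%) and 506 higher genes (3.31%), and the median change of all genes was 0.0097 on the log2 scale. The median log2 change was -0.48 among the 1037 and 0.25 among the 506. The plot of level against change shows both sides.

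**Figure D1:**
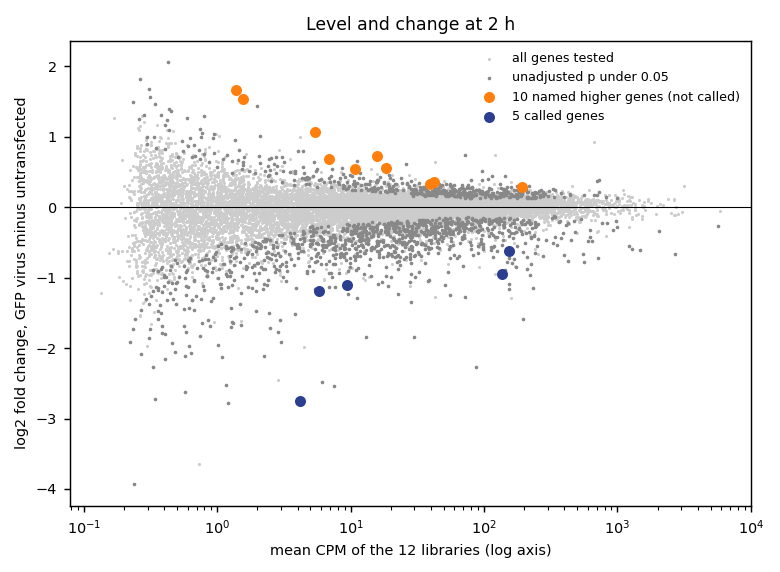
Mean CPM over the 12 libraries (log axis) against the log2 fold change at 2 h, GFP virus minus untransfected, for the 15299 genes tested; dark grey points had an unadjusted p under 0.05. The 5 called genes (blue) lie between -2.75 and -0.62 and the 10 named higher genes that were not called (orange) between 0.29 and 1.67.

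The gene with the smallest p was ENSRNOG00000049402, at chr5:151318754-151338719 on the minus strand, with 5 exon blocks and 2023 exonic bases. In magnesium medium it measured 216, 154 and 159 CPM in the untransfected libraries of cultures 1, 2 and 3, and 99, 91.3 and 81.7 CPM with the virus. In magnesium-free medium it measured 218, 140 and 202 CPM without the virus and 120, 85.3 and 91.3 CPM with it. Every GFP library was therefore below every untransfected one, as for 56 of all genes tested (0.366%). The log2 fold change was -0.94 ± 0.088 (SE, 12 libraries; edgeR adjusted p = 0.00223), a level of 52.1%. The log2 fold change was -0.96 ± 0.11 with magnesium and -0.90 ± 0.1 without, and the difference between the media was 0.033 ± 0.18 (adjusted p = 0.971). Of 23 other settings tried, 21 also called this gene, and its log2 fold change stayed between -1.04 and -0.86.

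The largest change was that of ENSRNOG00000012404, at chr1:151723086-151728075 on the minus strand, a gene of 2 exon blocks. Its level depended on the culture as well as on the virus. Untransfected libraries of culture 1 had 25.5 CPM with magnesium and 9.44 CPM without, and the other 4 had 1.42 to 2.44 CPM. With the virus, culture 1 had 3.16 and 2.39 CPM, and the other 4 libraries had 0.0355 to 0.516 CPM, which rest on 1 to 20 counts each. The groups overlapped because of the cultures, yet in every pair the GFP library was lower, by 1.92 to 4.46 on the log2 scale. The fitted log2 fold change was -2.75 ± 0.37 (edgeR adjusted p = 0.033), or 14.9% of the untransfected level, and -2.44 (adjusted p = 0.0382) without the library that stood apart. The gene was called in 10 of 23 other settings, and its log2 fold change stayed between -3.05 and -2.44.

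A gene on chromosome 7, at chr7:9712516-9719656 on the minus strand (7 exon blocks), also separated the groups completely. It measured 9.33 to 15.4 CPM in untransfected libraries, and 4.51 to 7.34 CPM with the virus, with medians of 13 and 6.35 CPM. Its log2 fold change was -1.10 ± 0.15 (edgeR adjusted p = 0.033). The gene at chr20:12723160-12726059 on the plus strand (6 exon blocks) had 5.57 to 13.5 CPM without the virus, median 6.46, and 1.99 to 6.64 CPM with it, median 2.79. Here the 2 GFP libraries of culture 1, at 5.71 and 6.64 CPM, reached into the untransfected range, and the log2 fold change was -1.18 ± 0.16 (adjusted p = 0.0288).

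The fifth gene, at chr8:20270041-20294580 on the plus strand, had 19 exon blocks and the smallest change of the 5. Untransfected libraries held 157 to 221 CPM, median 186, and GFP libraries 98.9 to 159 CPM, median 120. Only the magnesium-free GFP library of culture 1, at 159 CPM, was above the lowest untransfected value. The log2 fold change was -0.62 ± 0.081 (edgeR adjusted p = 0.0288). Just outside the threshold was a gene at chr6:39424324-39431014, with a log2 fold change of -1.11 ± 0.17 and an adjusted p of 0.0511. The genes on chromosomes 7, 20 and 8 were called in 9, 10 and 11 of 23 other settings. In none of those settings did a log2 fold change of the 5 genes change sign.

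**Figure D2:**
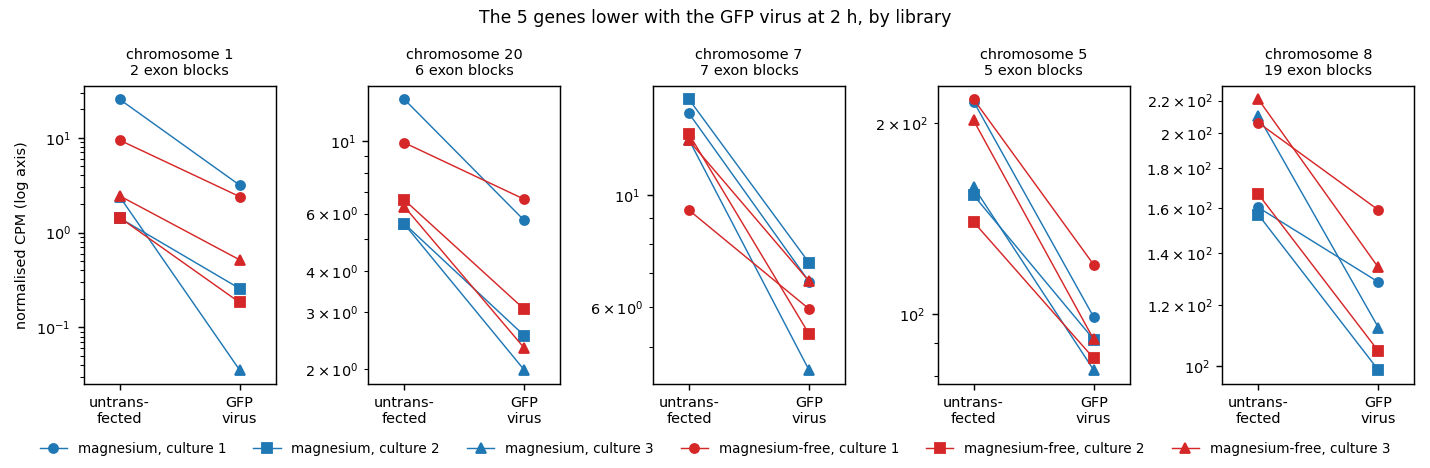
Normalised CPM (log axis, scaled per gene) of the 5 called genes at 2 h. Each line joins the untransfected and the GFP library of 1 culture in 1 medium; all 6 lines fall in each panel, and culture 1 (circles) starts highest for the gene on chromosome 1, where untransfected values run from 1.42 to 25.5 CPM.

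No gene passed the threshold of edgeR in the higher direction (506 at an unadjusted p under 0.05), whereas DESeq2 called 43 higher genes and edgeR with a block for each of the 6 pairs called 2. In all, 32 genes (0.209%) had all 6 GFP libraries above all 6 untransfected ones. The gene with the smallest p was ENSRNOG00000057880, at chr10:743685-838459 on the plus strand, with 43 exon blocks over 94775 bases. It measured 6.1, 5.25 and 5.19 CPM in the untransfected magnesium libraries of cultures 1, 2 and 3 and 8.38, 7.56 and 8.73 CPM with the virus. Without magnesium it measured 6.67, 4.45 and 4.46 CPM in untransfected libraries and 9.3, 8.79 and 8.79 CPM with the virus. The groups did not overlap, and the log2 fold change was 0.68 ± 0.12, but the edgeR adjusted p was 0.0952. The largest fold among the named higher genes was that of ENSRNOG00000000500, at chr20:6199182-6228584 on the plus strand, which went from 0.303 to 0.891 CPM without the virus to 0.732 to 3.41 CPM with it. These levels rest on 7 to 27 counts in untransfected and 12 to 83 counts in GFP libraries. Its log2 fold change was 1.67 ± 0.33 (adjusted p = 0.0952).

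The other 8 genes named on the higher side had edgeR adjusted p-values of 0.0952 to 0.125 and were higher in 6 of 6 pairs, which was part of the rule that chose them. DESeq2 called all 10 named higher genes, with adjusted p-values of 0.000104 to 0.00454. They had been chosen by small p on the same counts, so nothing is read from these calls. A gene at chr11:62254624-62292030 had 0.346 to 1.1 CPM without the virus and 1.44 to 3.61 CPM with it, with no overlap, and a log2 fold change of 1.54 ± 0.3. A gene at chr1:79415017-79429403 had 7.02 to 10.7 CPM and 10.9 to 15.5 CPM, again with no overlap, and a log2 fold change of 0.54 ± 0.1. A gene at chr15:37700919-37715469 had 9.55 to 14.4 CPM and 12.1 to 28.5 CPM, and one at chr10:79908738-79922813 had 1.25 to 10.2 CPM and 3.23 to 13.5 CPM. In both of these the groups overlapped, and their log2 fold changes were 0.73 ± 0.14 and 1.07 ± 0.22. For the second, the highest untransfected value was that of the library that stood apart, and without it the log2 fold change was 1.33 (adjusted p = 0.015). The remaining 4, at chr1:15762462-15891041, chr1:28283914-28367061, chr2:139086908-139106459 and chr7:9465195-9481966, had log2 fold changes of 0.29 to 0.56.

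The rMBD3 libraries of the same time point, which are compared with the same untransfected libraries, set the 10 higher genes apart into sets of 6 and 4. In the 6 on chromosomes 10 (both genes), 15, 11 and 20 and in the gene of 15 exon blocks on chromosome 1, the log2 difference between rMBD3 and untransfected libraries was 1.18 to 3.59. All 6 had an edgeR adjusted p of 0.00332 or less there, where 343 of 15463 genes were called. ENSRNOG00000057880 measured 11.5 to 14.2 CPM with rMBD3, above every GFP library, and ENSRNOG00000000500 measured 4.02 to 16.8 CPM, also above every GFP library. In the rest of the 6 the rMBD3 and GFP libraries overlapped. The share of all genes with such a separation was not computed, so nothing is read from it. In the set of 4 the rMBD3 difference was -0.02 to 0.29. For the 5 called lower genes it was -1.17 on chromosome 1, 0.22 on chromosome 20, -0.37 on chromosome 7, -0.38 on chromosome 5 and -0.52 on chromosome 8, and none was called. Because both contrasts use the same 6 untransfected libraries, these values are given side by side only.

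**Figure D3:**
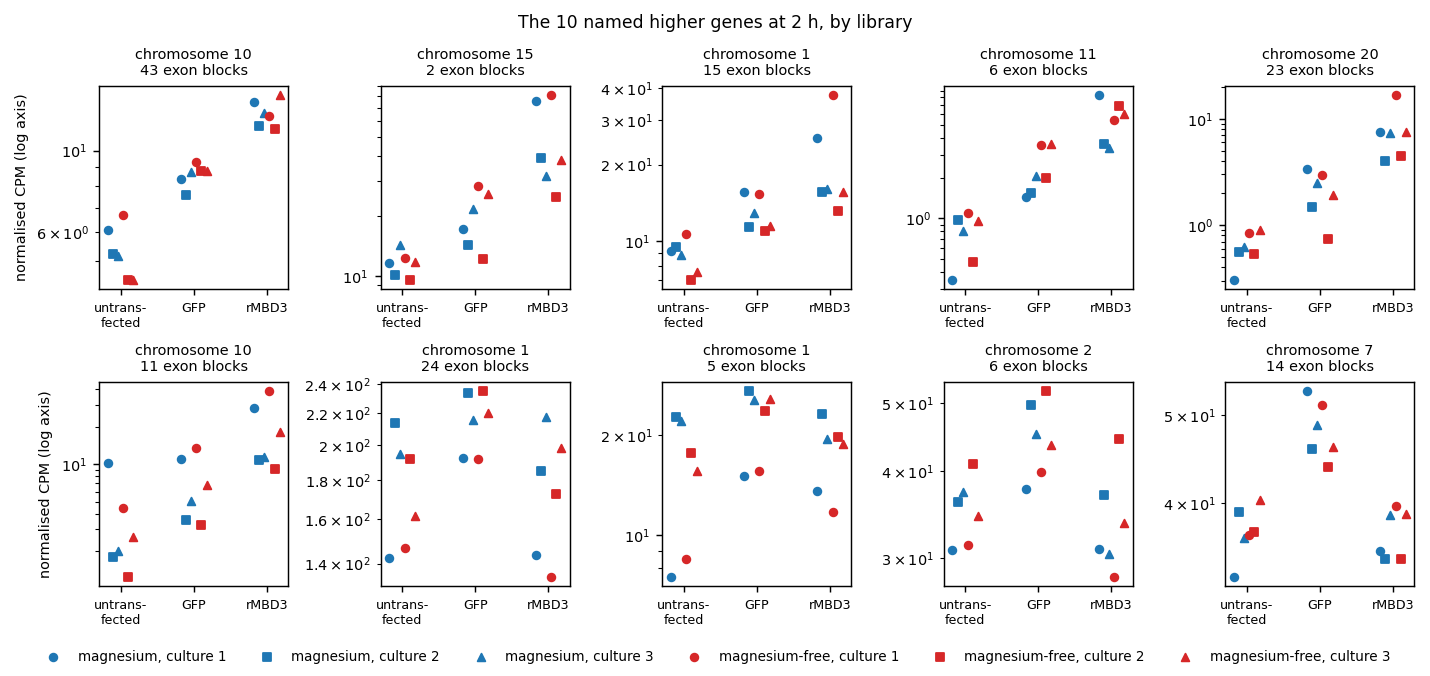
Normalised CPM (log axis, scaled per gene) at 2 h of the 10 genes named on the higher side, in 6 untransfected, 6 GFP and 6 rMBD3 libraries; colour gives the medium and shape the culture. For the gene of 43 exon blocks on chromosome 10 the GFP libraries, at 7.56 to 9.3 CPM, lie above all untransfected libraries and below all rMBD3 libraries. In other panels the GFP and rMBD3 ranges overlap.

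The same contrast at 6 h and at 24 h used separate libraries of the same 3 cultures. No gene was called at 6 h (0 of 15654 by edgeR, 0%, with 1946 at an unadjusted p under 0.05 and 167 called by DESeq2) or at 24 h (0 of 15734, 0%, with 964 and 127). The 5 lower genes had negative changes at 6 h as well: -1.93 ± 0.38 on chromosome 1, -0.95 ± 0.32 on chromosome 20, -0.66 ± 0.2 on chromosome 7, -0.78 ± 0.17 on chromosome 5 and -0.28 ± 0.22 on chromosome 8. Unadjusted p-values by edgeR were under 0.05 for 4 of them, against 6.27% of all genes for a lower value. At 24 h, 4 of the 5 were still below 0 and 2 had an unadjusted p under 0.05, while the chromosome 8 gene was at 0.25 ± 0.2. ENSRNOG00000057880 was higher by 0.65 ± 0.16 at 6 h and 1.05 ± 0.2 at 24 h, and the chromosome 1 gene of 15 exon blocks by 0.75 ± 0.15 and 1.17 ± 0.22. At both times, too, neither passed after adjustment over all genes.

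A wider set at 2 h, with adjusted p under 0.1, held 39 lower and 5 higher genes. Of the 39, all 39 were lower at 6 h, where 50.2% of all genes were, and 34 had an unadjusted p under 0.05. At 24 h, 27 of the 39 were lower and 9 had an unadjusted p under 0.05, against 52.7% and 4.13% of all genes. The 5 higher genes were higher at both times, with an unadjusted p under 0.05 for 5 at 6 h and 4 at 24 h. Of all genes, 49.8% were higher at 6 h and 47.3% at 24 h, and 6.49% and 2.07% were higher with such a p. Called without the library that stood apart, 45 genes were lower at 2 h, and 43 of these were lower at 6 h. A test of the difference itself called no gene, either between 6 h and 2 h (0 of 16842 by edgeR, 0%, with 128 at an unadjusted p under 0.05 and 80 by DESeq2) or between 24 h and 2 h (0%, with 1327 and 320).

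**Figure D4:**
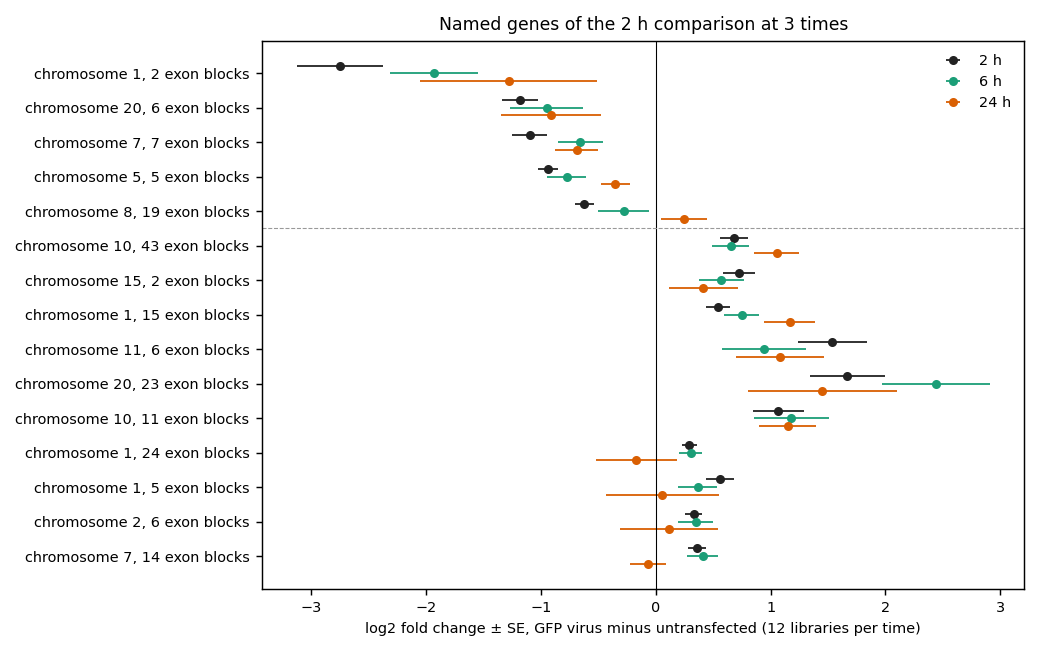
Log2 fold change ± SE, GFP virus minus untransfected, of the 15 named genes at 2, 6 and 24 h, 12 libraries per time. Genes above the dashed line were called lower at 2 h; of these, the chromosome 8 gene moves from -0.62 at 2 h to 0.25 at 24 h.

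Within the media the counts of calls differed, but a test of that difference called 1 gene. In magnesium-free medium 28 of 15244 genes were called by edgeR (0.184%), of which 21 were lower and 7 higher. All 21 lower genes were lower in magnesium medium too, where 48.3% of all genes were, and 12 had an unadjusted p under 0.05 there, against 6.56% of all genes. Of the 7 higher genes, 4 were higher in magnesium medium, 3 of them with an unadjusted p under 0.05; of all genes, 51.7% were higher and 2.2% higher with such a p, so that 4 of 7 is near the share of all genes. The 3 with the smallest adjusted p, 0.00455 each by edgeR, were picked out after their values were seen. Of these, a gene at chr1:96006000-96028826 had a log2 fold change of -1.24 ± 0.11 without and -0.47 with magnesium, and one at chr2:173454482-173467460 had -0.96 ± 0.08 and -1.36. The third, at chr13:92714315-92790235, was higher, by 1.02 ± 0.092 without and 0.49 with magnesium. Of the 5 genes called over both media, those on chromosomes 1 and 5 were among the 28. The 3 higher genes with the opposite sign in magnesium medium lie at chr2:133963107-134517536, chr8:108323894-108339988 and chr11:24931761-24941103. They had 0.62, 0.93 and 0.69 without magnesium and -0.28, -0.37 and -0.63 with it, and none of the 3 differences between media was called.

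In magnesium medium 1 of 15154 genes was called (0.0066%), and 994 genes were lower and 334 higher at an unadjusted p under 0.05. The untransfected library that stood apart is 1 of the 3 controls there, and without it 560 of 15637 genes were called (3.58%), 489 lower and 71 higher. That fit leaves the GFP library of culture 1 with no partner, so that it rests on cultures 2 and 3, and without culture 1 altogether the count was 582.

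The gene called for a difference between the media was 1 of 15646 tested (0.00639%), and it was also the 1 called in magnesium medium. It lies on an unplaced scaffold at positions 61191 to 65991, on the minus strand, as 1 exon block of 4801 bases. With magnesium it measured 106, 55.4 and 55.6 CPM in untransfected cultures 1, 2 and 3, and 406, 249 and 261 CPM with the GFP virus, a log2 fold change of 2.09 ± 0.11 (edgeR adjusted p = 0.0024). Without magnesium it measured 76.3, 61.8 and 60.3 CPM in untransfected cultures and 74.6, 28.6 and 34.5 CPM with the virus, a log2 fold change of -0.63 ± 0.2 that was not called. The difference between the media was -2.75 ± 0.24 (adjusted p = 0.00266). In rMBD3 libraries at 2 h the gene measured 341, 33.8 and 237 CPM with magnesium and 228, 30.1 and 37.8 CPM without, so that libraries of 1 group spread over as wide a range.

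The scaffold carries 8 genes of the table, of which 5 were tested, and the other 4 tested genes had differences between the media of -2.20 to -1.72, each with an adjusted p of 0.852. The most abundant of them, at positions 67995 to 69866, had median levels of 389 CPM without and 1649 CPM with the virus in magnesium medium, and 268 and 200 CPM in magnesium-free medium. Over all 54 libraries it ran from 188 to 2178 CPM. It has 1872 exonic bases, and a tested gene between it and the called gene, at positions 66770 to 66922, has 153. What kind of RNA these genes give was not looked up here, so the difference is not read as a response of a messenger RNA. Another tested gene, at positions 61114 to 71436 on the same strand, overlaps the span of the called gene, so that counting could have split or lost reads between them.

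Genes that differed between the sampling times in rMBD3 libraries lay mostly on 1 side of 0 at 2 h. Those libraries are in neither side of the comparison but come from the same 3 cultures. The genes had an edgeR adjusted p under 0.05 and differed at least 2-fold between times, averaged over both media. Of the 1875 tested genes that were higher at 24 h than at 2 h there, 414 (22.1%) were lower with the GFP virus at 2 h at an unadjusted p under 0.05 and 14 were higher, and 80.9% had a log2 fold change below 0. Their median was -0.21, and 1 of them was called. Of the 3157 tested genes that were lower at 24 h in rMBD3 libraries, 286 (9.06%) were higher with the GFP virus and 25 lower. Their median was 0.089, and 24.5% had a log2 fold change below 0. The share of all genes tested was 6.78% lower and 3.31% higher, and 47.5% had a log2 fold change below 0.

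The lists from 6 h showed the same sides. Of the 645 tested genes higher at 6 h than at 2 h in rMBD3 libraries, 136 (21.1%) were lower with the virus and 7 higher, with a median of -0.27. Without the library that stood apart, 145 were lower and 12 higher, with a median of -0.22. Of the 645 genes, 73.3% were also in the 24 h list, of which they made up 25.2%. Of the 820 lower at 6 h, 102 (12.4%) were higher and 2 lower, and without that library 150 and 1. By pair, the median of the 24 h rising list was below 0 in 6 of 6, from -0.49 to -0.07, and it was lower in the 3 magnesium pairs than in the 3 magnesium-free pairs. Both falling lists had medians above 0 in every pair except magnesium-free culture 2. There the 24 h list was at -0.012 and the 6 h list at -0.0017. Without the library that stood apart, 440 genes of the rising 24 h list were lower (23.2%) and 19 higher, with a median of -0.20. The falling 24 h list then had 439 higher genes (13.8%) instead of 286. Of all genes tested without that library, 7.1% were lower and 4.62% higher. At 6 h the GFP contrast had medians of -0.16 for the rising and 0.17 for the falling list, and at 24 h of 0.058 and -0.15. Of the 39 lower genes with an adjusted p under 0.1, 12 (30.8%) were in the rising 24 h list, which holds 12.3% of all genes tested, and 1 (2.56%) was in the falling list, which holds 20.6%. What the sampling time stands for is not labelled, and its part in these results was not tested.

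**Figure D5:**
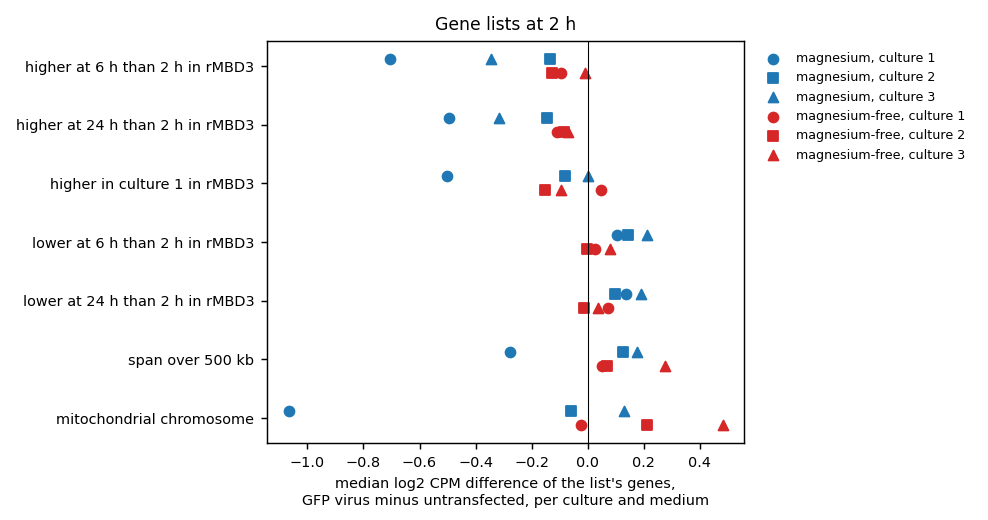
Median log2 CPM difference at 2 h, GFP virus minus untransfected, of the genes in each list, 1 point per culture (shape) and medium (colour). The rising 24 h list lies below 0 in all 6 pairs, while the mitochondrial genes run from -1.07 in culture 1 with magnesium to 0.48 in culture 3 without it.

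Lists tied to single cultures or to RNA composition moved less evenly. Of 665 tested genes higher in culture 1 than in cultures 2 and 3 of the rMBD3 libraries, 98 (14.7%) were lower with the virus and 10 higher, with a median of -0.15. Without the library that stood apart, 86 (12.8%) were lower and 39 (5.8%) higher, against 7.1% and 4.62% of all genes. The median was then -0.03. These genes made up 4.27% of the rising 24 h list, near their share of all genes tested, 4.35%. Genes spanning over 500 kb, of which 198 were tested, had 17 higher and 3 lower genes and a median of 0.062, and without that library 42 higher and 3 lower genes of 200 and a median of 0.14. The 19 tested mitochondrial genes had a median of -0.054 and no gene at an unadjusted p under 0.05. Without the same library their median was 0.18, none of the 19 was below 0, and 1 was higher at an unadjusted p under 0.05, so that the sign of this list rested on that library. The 50 most abundant genes took a smaller share of counts with the virus in 6 of 6 pairs, 9.73% ± 0.85 against 10.2% ± 1 (SD, n = 6 libraries from 3 cultures). In an exact two-sided sign-flip test the difference had p = 0.03125, the smallest p that 6 pairs allow, and 0.1875 after adjustment over 6 library measures. That test treats the pairs as independent, although they are 3 cultures in 2 media, so its p-values overstate the replication. For the other 5 measures, total count, mitochondrial share, genes with at least 10 counts, share of very long genes and chromosome Y level, adjusted p-values in the same exact test were 0.469 to 0.812.

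The number of genes called depended on which libraries entered. Without the library that stood apart, 47 genes were called, 45 lower and 2 higher. Without culture 1 altogether, 273 of 15329 genes were called (1.78%), 240 lower and 33 higher. In the 2 pairs of the culture left out, 206 of the 240 lower genes (85.8%) were lower on average, against 51.4% of all genes, and 18 of the 33 higher genes (54.5%) were higher, against 48.6%. Without culture 3 no gene was called by edgeR, with 824 at an unadjusted p under 0.05, and without culture 2 there was 1.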

How the data were processed

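Messenger RNA was sequenced in 54 libraries, of which 12 (GFP virus and untransfected at 2 h) form the comparison. Per the labels' protocols, a stranded mRNA kit was used, with STAR alignment to rn6. Per the file headers, the deposited counts are read pairs per gene from featureCounts 2.0.0 (reverse strand, mapping quality of at least 3, primary alignments) on the Ensembl annotation of mRatBN7.2, release 105, and coordinates follow the latter. The submitters' processing notes also name mRatBN7.2. A deposited log2 table was not used. Of its 30560 Ensembl identifiers, 0 were found among the 47357 genes of the RefSeq table (GRCr8), so lists, cell type markers and promoters that need symbols were not analysed here.

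Counts were tested with edgeR 4.0.16 in R 4.3.3: filterByExpr (minimum count 10, total 15), TMM factors, robust quasi-likelihood fits, Benjamini-Hochberg adjustment over all genes tested, threshold 0.05. The model had medium, culture number and construct. The SE was the log2 fold change over the root of F. CPM per library used TMM factors over all 54 libraries. Fits within a medium had culture number as block, and those at 6 h and 24 h the same model as at 2 h. DESeq2 1.42.0 (total of at least 10) was an alternative, with other scalings, filters, blocks and left-out libraries. The members and lists were chosen with earlier results of these data known. Named genes had an adjusted p under 0.05, a mean of at least 1 CPM and the same sign in all 6 pairs; as none passed on the higher side, the 10 of smallest p with the same properties were taken. The unplaced scaffold's other genes and the gene just outside the threshold were chosen after their values were seen.

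Culture numbers pair the libraries: labels give the number as the cell culture, and deviations from group means correlated at 0.115 to 0.597 in every pair, with a mean of 0.344 for same-numbered and -0.161 for differently numbered libraries. No 2 libraries of a group looked like copies (chi-square per gene of 9.76 to 192). The labels name cultures as biological replicates, without saying which animals they came from. On simulated counts for 15299 genes with 200 changed, edgeR recovered 53.7% of 1.5-fold, 71.6% of 2-fold and 97% of 4-fold changes, with 7.5% false calls, and DESeq2 had 16.2% false calls. These counts were drawn once and independently from the fitted model, with no response to the virus that differs between cultures. There edgeR called 160 genes, against 5 in the real data, so the recovered shares do not give the power of the real comparison.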

Additional observations from a re-analysis of the deposited data

Results flagged for a closer look

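Among 30 groups of 6 libraries (15 named genes, each with and without the virus), 2 held a library far from the other 5. Chance picks about 1 group in 20 where the 6 values share a common spread. These groups mix 3 cultures and 2 media and share libraries, so nothing is read from the count. In both flagged groups it was the untransfected library of culture 1 in magnesium medium, the one with the high mitochondrial share. There, ENSRNOG00000012404 measured 25.5 CPM, with the other 5 untransfected libraries at 1.42 to 9.44 CPM, and the gene at chr10:79908738-79922813 measured 10.2 CPM, with the others at 1.25 to 4.47 CPM. The first is lower and the second higher with the virus, so that the same library widened 1 difference and narrowed the other; its part was measured by leaving it out, with log2 fold changes of -2.44 and 1.33.

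The gene at positions 61191 to 65991 of an unplaced scaffold, whose kind of RNA was not looked up, differed between media in the GFP contrast. Its log2 difference was -2.75 ± 0.24 in the interaction test of edgeR (adjusted p = 0.00266). All 3 cultures were higher with the virus in magnesium medium. In magnesium-free medium cultures 2 and 3 were lower with it, while culture 1 measured 76.3 CPM without and 74.6 CPM with the virus. The 4 other tested genes of the scaffold had differences of the same sign, and the level of all 5 varied widely over the 54 libraries (28.6 to 406 CPM for the called gene).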

How the results depend on the processing

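At 2 h, the 5 calls became 0 without the replicate block (885 genes at an unadjusted p under 0.05), 265 with DESeq2 (43 higher, 222 lower), 49 with a block for each of the 6 pairs (2 higher, 47 lower, all 5 among them), 8 without the low-count filter and 19 in a model of all 54 libraries. Relative log expression factors gave 6, library totals 7 and a minimum of 1 CPM in 6 libraries 5. Leaving out 1 library or 1 culture gave 0 to 273 calls; of single libraries, the GFP magnesium library of culture 1 left 5, the untransfected magnesium library of culture 1 gave 47, the untransfected magnesium-free library of culture 1 gave 8, and each of the other 9 left 1 or 2. In magnesium medium, the 1 call became 0 without the block and 189 with DESeq2, and 3 to 582 with a culture left out. In magnesium-free medium, the 28 calls became 0 without the block, 140 with DESeq2, and 0 to 141 with a culture left out. The difference between media gave 0 without the block, 6 with DESeq2, and 0 to 3 with a culture left out. The 0 calls at 6 h became 167 with DESeq2 and 0 to 4 with a culture left out, those at 24 h 127 and 0 to 7, and those of the time differences 80 and 320 with DESeq2 and 0 with any culture left out. No log2 fold change of a named gene changed sign at 2 h in any of these settings; the causes of the differing counts were not tested. Leaving out the library that stood apart, an alternative chosen after seeing the data, moved the falling 24 h list from 286 to 439 higher genes, the rising 6 h list from 7 to 12 higher, the list high in culture 1 from 10 to 39 higher, the falling 6 h list from 2 to 1 lower and the genes spanning over 500 kb from 17 to 42 higher. Among all genes tested the number higher went from 506 to 718 as well. Leaving that library out turned the median of the mitochondrial genes from -0.054 to 0.18, and took the calls in magnesium medium from 1 to 560. Genes near 1 CPM rest on few counts, as low as 1 for ENSRNOG00000012404 in a GFP library.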
